A study of Homo sapiens with 16 samples.

Results

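The genes described here are protein-coding genes whose level in the SW480 line overexpressing Ajuba stood apart from all other lines of the study. They were chosen by their measured values: the mean of the Ajuba OE line, plus 0.1 RPM, the count divided by the column total and multiplied by 1000000, had to be at least 2 times the highest, or at most 0.5 times the lowest, of the 5 other line means treated likewise. At least 1 line mean had to reach 1 RPM, and AJUBA, AMOTL1 and CDH11 were left out. Of 13356 protein-coding genes at that level, 230 met the rule, 1.72% of them, with 32 higher and 198 lower in Ajuba OE. The 19575 protein-coding genes considered were part of a table of 66023 genes.

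SW480 is a human colon adenocarcinoma cell line, and the study asked how its transcriptome changes with less or more Ajuba. Every line but the unmodified Parental cells (n = 2) was made with lentivirus and kept under puromycin. The shScrambled line (n = 2) carried a non-mammalian control shRNA, shAjuba1 (n = 3) an shRNA against the coding region of AJUBA, and shAjuba2 (n = 3) an shRNA against its non-coding region. The Ajuba OE line (n = 3) carried AJUBA with FLAG and HA tags behind the CMV promoter, a strong viral promoter, with a puromycin resistance gene on the same transcript. Control (n = 3) carried the same construct after the exogenous AJUBA sequence had been excised. The transduced lines were stable lines, and nothing in the labels places the samples of a line in separate cultures. The paper calls the samples of a line technical replicates. P-values thus measure only the spread between these samples. An effect of a construct and a difference between transduced cultures cannot be told apart.

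Total counts ran from 30132396 to 69684675 per sample, and mitochondrial genes took 9.66% to 21.2% of them. Replicate 2 had the highest share of its line in every line but Parental, by the widest margins in shAjuba2, Control and Ajuba OE. AJUBA averaged 526 RPM in Ajuba OE against 93.2 in Control, and 50.1 and 62.0 RPM in shAjuba1 and shAjuba2 against 82.5 in shScrambled. Of 11 colon epithelial markers, 10 reached 1 RPM in some sample and CDX1 did not. Their summed level was 5825 to 7080 RPM in Ajuba OE and 2938 to 6654 RPM elsewhere. Fibroblast markers summed to 6.34 to 10.6 RPM in Ajuba OE and 15.6 to 37.8 RPM in the other samples, a gap carried by COL1A1 and by PDGFRB, itself among the 198 genes, while 6 of the 8 stayed under 1 RPM in every sample. Fewer cells of a type and less RNA per cell cannot be told apart in such bulk libraries, and the part of these markers in the results was not tested.

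Ajuba is a LIM-domain scaffold protein found at cell junctions and in the nucleus. It binds LATS kinases, which restrain the transcription cofactors YAP and TAZ in the Hippo pathway, and it has been tied to Wnt and other signalling in epithelial cells. YAP and TAZ act through TEAD transcription factors on genes such as CCN1 and CCN2. Colon epithelial cells renew from crypt stem cells under Wnt signalling, with bone morphogenetic proteins (BMP) opposing them, and ASCL2 is a transcription factor of those stem cells.

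The values that chose the genes are given first, as a description without a test. In each of the 230 genes, the 3 Ajuba OE samples lay beyond all 13 samples of the other lines. Over all genes at 1 RPM or more, 2.85% had the 3 samples above and 6.83% had them below the other 13. At the median, Ajuba OE lay 2.59-fold above the nearest line in the higher genes and 2.79-fold below it in the lower genes. The largest of these ratios were 6.72 for CACNA1E and 17.0 for ALPK2. The nearest line was Control for 95 of the 198 lower genes, shScrambled for 45, shAjuba1 for 39, Parental for 12 and shAjuba2 for 7. For the 32 higher genes it was Parental in 12, Control in 11, shAjuba1 in 7 and shScrambled in 2. Just inside the limit lay UROC1 at 2.013 and SYT8 at 2.030 among higher genes, and PLA2G7 at 2.002 and CITED2 at 2.003 among lower genes. Just outside lay ACTL8 and CACNA1S among higher genes, and SOX4 and KIAA1755 among lower genes, with ratios from 1.996 to 2.000.

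**Figure D1:**
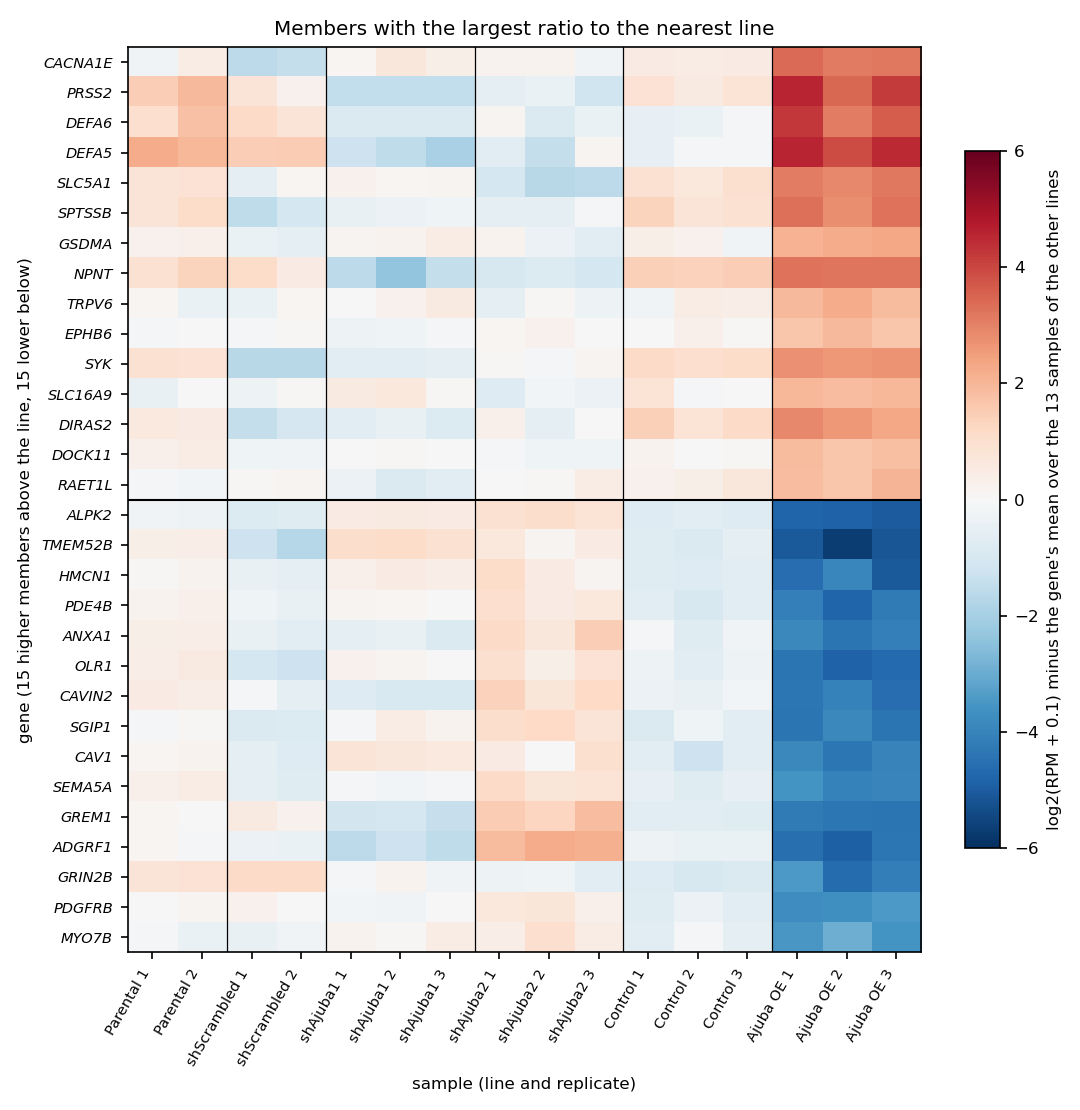
Heat map of the 15 higher (top) and 15 lower (bottom) genes with the largest ratio of Ajuba OE to its nearest line, 1 row per gene and 1 column per sample. Colour is log2(RPM + 0.1) minus the gene's mean over the 13 samples of the other lines. The 3 Ajuba OE columns hold the darkest colours in every row, and rows such as ADGRF1 and GREM1 also differ between the knockdown lines.

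Among the 32 higher genes, the tyrosine kinase SYK, an immune receptor kinase that epithelial cells also express, had the highest level, as RPM and per kb of exon. It stood at 792, 724 and 769 RPM in the 3 Ajuba OE samples, and at 267, 239 and 258 RPM in Control. Parental held 220 and 213 RPM, shScrambled 37.5 and 36.7, shAjuba1 75.6, 77.0 and 80.1, and shAjuba2 124, 108 and 135. The other lines were thus themselves spread, and SYK was lowest in shScrambled. EPHB6, an Eph receptor without kinase activity, showed a flatter background. Its Ajuba OE samples held 158, 195 and 158 RPM, and the 13 others lay between 40.6 and 62.1 RPM. ASCL2 reached 47.1, 46.6 and 36.8 RPM in Ajuba OE, against 16.7, 18.3 and 18.5 in Control and 16.2 and 16.7 in Parental. In shScrambled it was at 6.56 and 6.82 RPM, and in the knockdown lines between 8.83 and 13.9 RPM. LGR5, another of the colon epithelial markers, went the other way at a very low level. It averaged 0.0723 RPM in Ajuba OE, 0.235 RPM in Control and 1.54 RPM in shScrambled, its highest line. Per kb of exon, SYK led the higher genes in Ajuba OE at 146 RPM per kb, before EPHB6 at 32.0 and ASCL2 at 29.3.

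Roles were assigned after the values were seen and to these 230 genes only, so no share over all genes stands beside them. Of 5 genes assigned to host defence, 4 were higher, and BPI was lower. The enteric alpha-defensin DEFA5, a Paneth cell peptide, was at 8.97, 5.81 and 8.40 RPM in Ajuba OE, at most 1.72 RPM in Parental, 0.960 and 1.01 RPM in shScrambled, and at most 0.329 RPM in Control and the knockdown lines. Its neighbour DEFA6 was at 3.40, 1.46 and 2.16 RPM in Ajuba OE and at most 0.523 RPM elsewhere, with 0 counts in all 3 shAjuba1 samples. PRSS2, a trypsinogen gene, was likewise at 0 in shAjuba1 and at 6.64, 2.96 and 5.10 RPM in Ajuba OE. Of the 23 genes grouped here as channels and transporters, 14 were lower and 9 higher, among the latter the calcium channel subunit gene CACNA1E, the epithelial calcium channel gene TRPV6, the glucose cotransporter gene SLC5A1 and the gap junction gene GJB2. CACNA1E held 3.83, 3.23 and 3.24 RPM in Ajuba OE and at most 0.498 RPM in any other sample. The Wnt antagonist gene DKK4 was at 15.9, 7.81 and 12 RPM in Ajuba OE, at 3.72 and 5.41 RPM in Parental and at 1.34, 0.673 and 1.02 RPM in Control. Most higher genes were sparse, and 21 of the 32 stayed under 10 RPM in every line.

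Promoters are shown for 2 of these, SYK and EPHB6, because they held the highest levels per kb of exon. RefSeq promoter entries (GRCh38.p14), 250 bases before to 50 bases after a start, matched 184 of the 230 genes by symbol, 24 higher and 160 lower. Capitals mark matches to the TEAD core (CATTCC or GGAATG on the other strand), the AP-1 motif TGANTCA, which reads alike on both strands, the E-box (CACCTG or CAGGTG), or the TATA box TATAAA in the direction of the gene. The SYK entry lies at chr9:90801350-90801649, plus strand, the first of 3 starts listed. The EPHB6 entry lies at chr7:142862506-142862805, plus strand, within the EPHB6 gene body of the GENCODE annotation.
SYK: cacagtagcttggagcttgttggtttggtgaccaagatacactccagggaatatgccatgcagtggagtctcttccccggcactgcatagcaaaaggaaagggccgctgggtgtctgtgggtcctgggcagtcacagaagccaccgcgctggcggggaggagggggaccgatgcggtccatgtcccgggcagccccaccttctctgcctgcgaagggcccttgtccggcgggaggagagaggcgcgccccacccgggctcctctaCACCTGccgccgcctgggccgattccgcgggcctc
EPHB6: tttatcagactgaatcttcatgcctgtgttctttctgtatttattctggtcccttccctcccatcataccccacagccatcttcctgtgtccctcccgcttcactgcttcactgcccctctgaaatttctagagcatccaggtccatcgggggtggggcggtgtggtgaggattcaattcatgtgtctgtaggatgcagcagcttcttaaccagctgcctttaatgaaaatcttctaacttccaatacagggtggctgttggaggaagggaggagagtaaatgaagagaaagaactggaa

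The SYK window holds an E-box match and the EPHB6 window none of these motifs.

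Per kb of exon, the highest line means of the lower genes were those of BMP4 at 146 RPM per kb, GABARAPL1 at 141, PPME1 at 103, ANXA1 at 67.0 and GNG11 at 59.3. PPME1, the methylesterase of protein phosphatase 2A, was at 116, 98.1 and 118 RPM in Ajuba OE and at 338, 338 and 362 RPM in Control, with shAjuba1 highest at 801, 778 and 822 RPM. GABARAPL1, an ATG8 family gene of autophagy, was at 82.7, 75.0 and 76.0 RPM in Ajuba OE against 244, 240 and 262 RPM in Control, and at 363 RPM or more in all other samples. By ratio the list was headed by ALPK2, an alpha-kinase gene. It held 1.05, 1.00 and 0.905 RPM in Ajuba OE, 17.7 RPM at the lowest sample elsewhere and 65.5 RPM at the highest. ANXA1, which encodes a phospholipid-binding annexin, showed a similar gap, with 9.27, 6.44 and 7.90 RPM in Ajuba OE against 73.8 to 375 RPM in the 13 other samples. Counts were few at the low end: 13 of the 198 genes had 0 counts in an Ajuba OE sample, and 5, among them SGIP1, SEMA3C, PCDH19 and CACNA2D1, had at most 3 counts over all 3, so no fold is given for them.

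Genes of caveolae, flask-shaped pits of the plasma membrane, were among the lower genes, a group named after its values were seen. CAV1, the main coat protein, was at 5.24, 3.71 and 4.63 RPM in Ajuba OE. It was at 50.0, 32.1 and 47.1 RPM in Control, 53.3 and 45.2 in shScrambled, 83.8 and 87.7 in Parental, 132, 125 and 116 in shAjuba1, and 108, 76.3 and 147 in shAjuba2. CAV2, its partner, was at 9.46, 6.06 and 9.20 RPM in Ajuba OE against 21.4 to 52.9 RPM in all others. CAVIN2, a cavin of the caveolar coat, was at 0.172, 0.229 and 0.126 RPM against 2.75 to 14.3 RPM. EHD2, an ATPase at the caveolar neck, was at 0.732, 0.667 and 0.603 RPM against 2.48 to 9.27 RPM. Other genes of the coat and neck did not meet the rule, with log2 ratios of Ajuba OE to Control of -0.57 for CAVIN1, -0.13 for CAVIN3, -0.47 for CAVIN4 and -0.13 for PACSIN2, and CAV3 stayed under 1 RPM in every line.

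**Figure D2:**
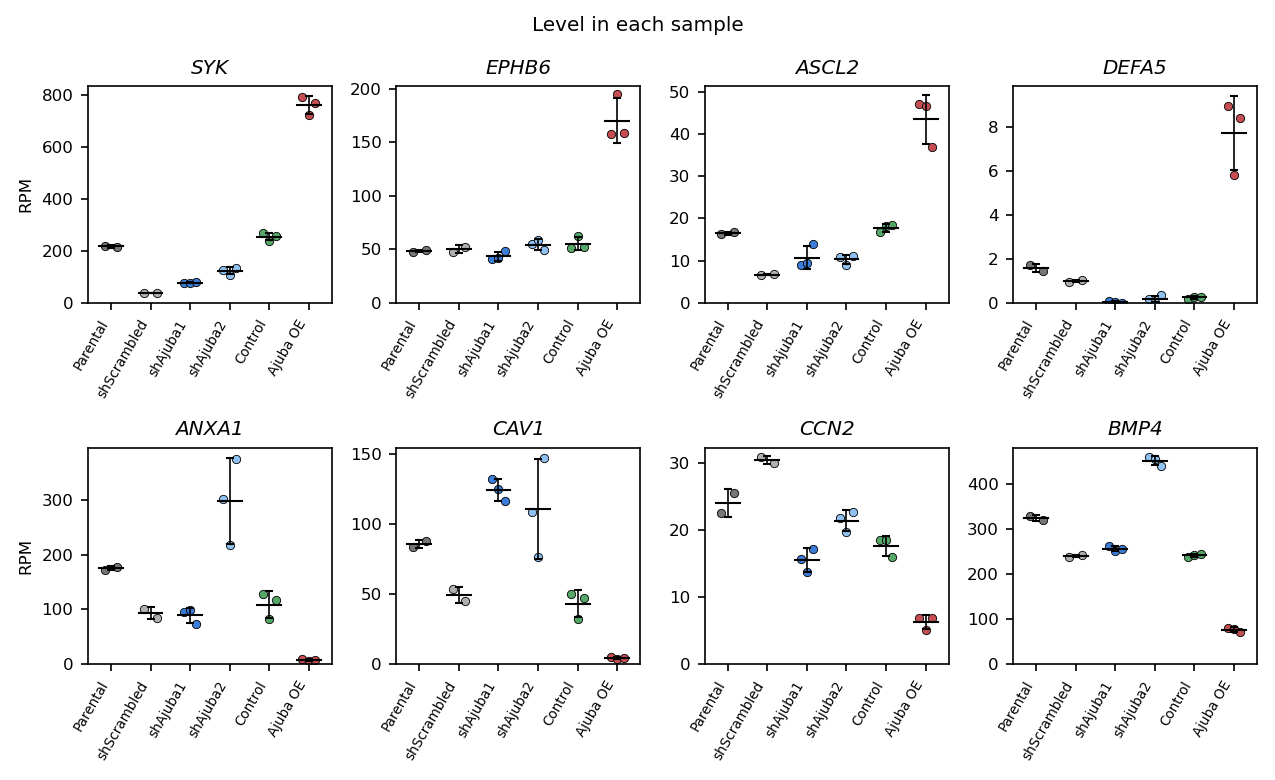
RPM of 8 of the genes in every sample, by line; points are samples, horizontal bars are line means and error bars are the SD over the 2 or 3 samples. Ajuba OE stands above the other lines for SYK, EPHB6, ASCL2 and DEFA5 and below them for ANXA1, CAV1, CCN2 and BMP4, and the other lines differ from each other as well, as for CAV1 with 32.1 RPM at its lowest and 147 RPM at its highest sample.

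Of 23 YAP and TAZ target genes, all above 1 RPM in some line, 7 (30.4%) met the rule, beside 1.72% of all genes. All 7 were lower: the matricellular genes CCN1 and CCN2, CRIM1, ARHGEF17, the ectonucleotidase gene NT5E, the phosphatase gene PTPN14 and the growth factor gene TGFB2. CCN1 was at 30, 21.6 and 30.8 RPM in Ajuba OE and 82.3, 78.8 and 78.0 RPM in Control, with 138 RPM as its highest sample. CCN2 was at 6.85, 5.17 and 6.86 RPM in Ajuba OE, 18.6, 18.5 and 16 in Control, and 30.9 and 30 in shScrambled. NT5E was at 8.75, 8.75 and 8.90 RPM in Ajuba OE against 24.4 RPM or more in every other sample and up to 108 RPM in shAjuba2. Of the other 16 targets, 12 were below and 4 above Control in Ajuba OE, with a median log2 ratio of -0.29. Over all 13126 genes at that level that did not meet the rule, 7053 were below and the median was -0.02.

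The promoters of CCN2 and PTPN14 are shown because YAP target genes are usually described with TEAD sites. That of CAV1, which was not in the list of targets, is shown beside them. The windows of CCN2, PTPN14 and CAV1 are chr6:131951323-131951622, minus strand, chr1:214551553-214551852, minus strand, and chr7:116524759-116525058, plus strand, the first of 3 starts listed for CAV1.
CCN2: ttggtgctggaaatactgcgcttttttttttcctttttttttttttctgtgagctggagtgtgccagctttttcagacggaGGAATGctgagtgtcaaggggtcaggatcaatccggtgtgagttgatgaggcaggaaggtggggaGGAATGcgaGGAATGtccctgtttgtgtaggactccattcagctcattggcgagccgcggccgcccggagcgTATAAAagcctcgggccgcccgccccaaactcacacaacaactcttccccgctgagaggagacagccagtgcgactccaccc
PTPN14: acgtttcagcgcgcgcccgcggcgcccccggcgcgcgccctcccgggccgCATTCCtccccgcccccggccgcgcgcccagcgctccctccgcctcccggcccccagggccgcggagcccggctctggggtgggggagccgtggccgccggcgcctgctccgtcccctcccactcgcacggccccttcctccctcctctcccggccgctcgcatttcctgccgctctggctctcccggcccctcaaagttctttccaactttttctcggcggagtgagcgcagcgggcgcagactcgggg
CAV1: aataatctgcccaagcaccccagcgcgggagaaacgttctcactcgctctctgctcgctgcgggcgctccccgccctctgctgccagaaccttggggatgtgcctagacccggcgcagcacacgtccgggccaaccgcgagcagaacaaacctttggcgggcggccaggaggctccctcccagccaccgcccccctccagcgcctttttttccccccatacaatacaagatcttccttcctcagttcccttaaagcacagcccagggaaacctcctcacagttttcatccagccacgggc

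The TEAD core stands 3 times in the CCN2 window, beside a TATA box, and appears in that of PTPN14 as well, whereas the CAV1 window holds no match to any of the 4 motifs. Of the other lower targets with a promoter entry, TGFB2 held the TEAD core and NT5E did not. Per listed start, 16% of 263 promoters of lower genes and 14.3% of 35 promoters of higher genes held the TEAD core, and 11.5% of 15547 promoters of other coding genes at 1 RPM or more did. For the TATA box these shares were 10.6%, 8.57% and 3.95%. For the E-box they were 17.5%, 34.3% and 19.2%, and for AP-1 5.32%, 14.3% and 5.32%. Such matches describe letters in a window, and no binding was measured.

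Of 24 genes assigned to ligands, growth factor binders and antagonists, 21 were lower and 3 higher, close to the 86.1% lower among all 230. In a list of 37 measured TGF-beta and BMP pathway genes, 7 (18.9%) met the rule, all lower, beside 1.72% of all genes. Among them were the ligand genes BMP4, BMP5, TGFB2 and INHBA, the BMP antagonist gene GREM1, and LTBP1, which stores latent TGF-beta in the matrix. BMP4 was at 81.3, 78.2 and 71.7 RPM in Ajuba OE, 238, 243 and 245 in Control, 330 and 321 in Parental, and 460, 455 and 441 in shAjuba2. GREM1, which blocks BMP ligands, was at 0.201, 0.188 and 0.176 RPM in Ajuba OE and 2.13 RPM at the lowest other sample. A ligand and its antagonist were thus low together. The other 30 genes of the pathway had a median log2 ratio of -0.07 to Control.

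Axon guidance genes gave 4 lower semaphorins (SEMA3A, SEMA3C, SEMA3D and SEMA5A) and the higher EPHB6 among 54 measured, 9.26% beside 1.72% of all genes. SEMA5A, a transmembrane semaphorin, was at 1.85, 1.33 and 1.41 RPM in Ajuba OE and 14.0 to 52.2 RPM elsewhere. SEMA3A, a secreted repellent, was at 3.59, 2.96 and 3.67 RPM in Ajuba OE, 11.2, 9.14 and 10.7 in Control, and 35.3 and 33.5 in shScrambled. SEMA3C and SEMA3D were already low in Control, at 0.204 to 0.364 RPM for both genes, and in shAjuba2. Of 15 measured synaptic and axonal adhesion genes, NRXN3, CNTN1, CNTNAP3 and LRRTM1 were lower, 26.7% beside 1.72% of all genes. CNTNAP3 and CNTNAP3B, both lower, are near-identical copies that can share reads, so their levels are uncertain. The same holds for KRT81, KRTAP2-3, KRTAP4-7, PSG5, SPANXB1, SLC2A14 and PRSS2, which belong to families of close copies.

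Wnt genes stood on both sides. Of 34 measured ligands, receptors and inhibitors, DKK4 was higher, and DKK1, FRZB and the receptor gene FZD2 were lower, 11.8% beside 1.72% of all genes. DKK1 was at 8.42, 6.00 and 7.97 RPM in Ajuba OE against 14.5 to 50.2 RPM elsewhere. Among 19 Wnt feedback targets, ASCL2 was higher and DKK1 lower (10.5%), and the other 17 had a median log2 ratio of 0.24. Of the 230 genes, 86.1% of which were lower, 18 were assigned to transcription regulators and 17 of these were lower, including MITF, the orphan receptor gene NR2F1, the homeobox gene EMX2, and TLE1 and TLE2, corepressors that bind TCF factors. NR2F1 was at 17.1, 17.1 and 12.5 RPM in Ajuba OE and 56.8 to 106 RPM elsewhere. Zinc finger genes gave 3 of 425 measured (ZNF655, ZNF821 and ZNF185), 0.706% against 1.72% for all genes. No gene met the rule among 29 laminin and matrix genes, 20 integrins, 19 claudins, 30 interferon response genes or 24 genes of cholesterol synthesis. With 1.72% of all genes meeting it, lists this short can hold none, so nothing is read from these counts.

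The lines other than Ajuba OE were then compared, since these comparisons leave out the samples that set the genes apart. Their line means did bound the choice, because each had to lie at least 2-fold from Ajuba OE. A gene was called where edgeR's quasi-likelihood test gave an adjusted p under 0.05 over all genes. The knockdown comparisons share shScrambled as control, so their values are set side by side without counting them as independent.

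In shAjuba2 against shScrambled the lower genes were mostly above the control. Of 198 tested, 74 (37.4%) were called higher and 16 (8.08%) lower, and the median log2 fold change was 0.56. Over all 13355 genes tested at 1 RPM or more, 9.08% were called, 3.68% higher and 5.41% lower, with a median of -0.03. In shAjuba1 against shScrambled, 68 (34.3%) of the lower genes were called higher and 61 (30.8%) lower, with a median of 0.10. Over all 13348 genes, 46.2% were called, 21.8% higher and 24.4% lower, with a median of 0.00. The higher genes gave 8 calls up and 7 down of 30 tested in shAjuba1, and 2 up and 6 down of 32 in shAjuba2. The shAjuba2 total of 98 genes called became 30 without shScrambled replicate 1, 25 without shScrambled replicate 2, 46 without shAjuba2 replicate 1 and 157 without shAjuba2 replicate 2. Calls over all genes moved with it, to 1.18%, 1.03%, 2.71% and 27.4%.

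**Figure D3:**
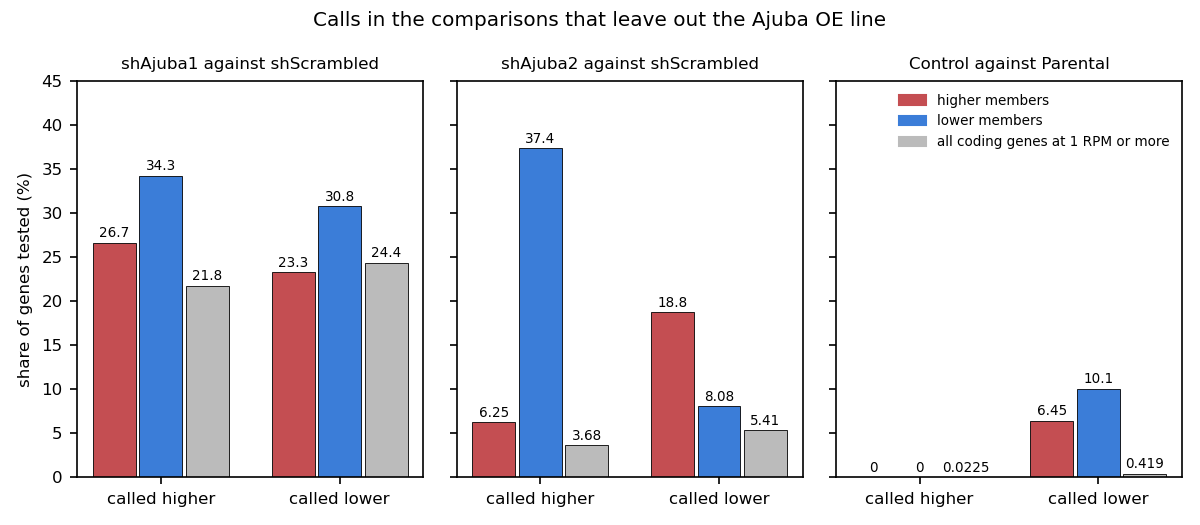
Share of genes tested that were called higher or lower (percent, edgeR adjusted p under 0.05) in 3 comparisons without Ajuba OE, for the higher genes (red), the lower genes (blue) and all coding genes at 1 RPM or more (grey). The blue bar for calls higher in shAjuba2 stands at 37.4% beside 3.68% over all genes, and that for calls lower in Control at 10.1% beside 0.419%.

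Called higher in both knockdown lines, against the direction of Ajuba OE, were 43 (21.7%) of the 198 lower genes. Over all 13347 genes tested in both, 2.29% were called higher in both. CAV1 had a log2 fold change of 1.32 (SE 0.101, edgeR adjusted p = 8.32e-07) in shAjuba1 and 1.12 (SE 0.253, adjusted p = 0.0398) in shAjuba2. For TMEM52B the values were 2.51 (SE 0.138) and 1.86 (SE 0.193), with edgeR adjusted p = 5.17e-08 and 0.00272. OLR1, a scavenger receptor for oxidised LDL, gave 1.28 and 1.85, ALPK2 1.27 and 1.67, and SEMA5A 0.55 and 1.53. Line means in Parental, shScrambled, shAjuba1 and shAjuba2 were 53.4, 17.4, 42.5 and 64.9 RPM for OLR1, below Parental in shAjuba1. For TMEM52B they were 26, 7.24, 41.3 and 27.2 RPM, and for CAV1 85.8, 49.3, 124 and 111 RPM. The knockdown lines were not tested against Parental. Others in the 43 were SCTR (the secretin receptor), the chemokine receptor gene ACKR3, MITF, EMX2, RGS2 and RGS5, which restrain G-protein signalling, and the cardiac troponin gene TNNT2. EMX2 and RGS5 had their highest line mean in Parental, at 0.568 and 0.513 RPM per kb of exon, above both knockdown lines. SUSD2 had the smallest adjusted p of the 230 genes in shAjuba1, with a log2 fold change of 2.80 (SE 0.115, edgeR adjusted p = 7.58e-09), and 0.96 in shAjuba2. SERTAD4 gave 2.28 (SE 0.114, edgeR adjusted p = 2.80e-08) in shAjuba1 but was not called in shAjuba2, at -0.78 (adjusted p = 0.0742), although 5 of 10 alternatives called it lower there, with adjusted p from 0.00458 to 0.392. In shAjuba2, CAV1 lost its call in 3 of 10 alternatives, with adjusted p from 3.50e-06 to 0.287, SUSD2 in 2 of 10, and OLR1 and SEMA5A in 1 of 10 each.

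Called lower in both knockdown lines, in the same direction as in Ajuba OE, were 13 (6.57%) of the 198 lower genes, beside 3.91% over all genes. The protocadherin gene PCDH19, a homophilic adhesion molecule, had log2 fold changes of -2.90 (SE 0.133, edgeR adjusted p = 1.32e-08) in shAjuba1 and -5.94 (SE 0.212, adjusted p = 0.000115) in shAjuba2. SEMA3C gave -1.74 and -3.75, SEMA3D -1.29 and -4.54, SEMA3A -1.06 and -1.69, and CACNA2D1, a calcium channel subunit gene, -1.59 and -3.37. The growth factor binder gene IGFBP5 gave -3.26 and -2.05, and the steroid-reducing enzyme gene AKR1C3 -2.97 and -2.74. CCN2 was among them too, with -0.98 (SE 0.104, edgeR adjusted p = 1.20e-05) in shAjuba1 and -0.56 (SE 0.119, adjusted p = 0.0329) in shAjuba2, a call lost in 3 of 10 alternatives. CCN2 thus had its highest line mean in shScrambled. CCN1, with -0.02 and 0.10, was called in neither line.

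A further 13 (6.57%) of the lower genes were called lower in shAjuba1 and higher in shAjuba2, and 48 (24.2%) were called in neither line. Over all genes these shares were 0.337% and 51.7%. The 13 included ADGRF1 and ADGRF5, adjacent adhesion G-protein coupled receptor genes, the ERBB ligand gene NRG1, the BMP antagonist gene GREM1, and the potassium channel gene KCNQ5. F13A1, coagulation factor XIII subunit A, stood at -1.29 (SE 0.107, edgeR adjusted p = 1.57e-06) and 2.42 (SE 0.138, adjusted p = 0.000417). ANXA1 was called in shAjuba2, at 1.63 (SE 0.228, edgeR adjusted p = 0.00753), but not in shAjuba1, at -0.07. BMP4 likewise gave 0.86 (SE 0.127, edgeR adjusted p = 0.00931) and 0.08. In shAjuba2, the call was lost in 2 of 10 alternatives for ANXA1, with adjusted p up to 0.11, and in 3 of 10 for BMP4, with adjusted p up to 0.172. Among the 13, the shAjuba1 call was lost in 6 of 10 alternatives for GDA, 4 for NAV3, 3 for KCNQ5 and CAVIN2, and 1 for NRG1. The shAjuba2 call was lost in 4 of 10 for GDA, FRZB and HSD17B2, and in 2 for ADGRF5. For GREM1, NAV3, CAVIN2, TRPS1 and ZBED2 it was lost in 3 of 10.

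Among the higher genes, DEFA5, the extracellular matrix gene NPNT, the serine protease gene PRSS56 and NOS2, the inducible nitric oxide synthase, were called lower in both knockdown lines, 4 (13.3%) of the 30 higher genes tested in both, beside 3.91% over all genes. NPNT gave log2 fold changes of -3.04 (SE 0.364, edgeR adjusted p = 3.46e-05) in shAjuba1 and -2.04 (SE 0.295, adjusted p = 0.0087) in shAjuba2. DEFA5 gave -4.72 (SE 0.489) and -2.50 (SE 0.5), from at most 16 reads a sample in the knockdown lines. NOS2 lost its call in 4 of 10 alternatives in each knockdown line, and in shAjuba2 DEFA5 lost it in 3 of 10 and NPNT and PRSS56 in 2 of 10. SYK and CACNA1E were called higher in both, SYK at 1.05 (SE 0.0839, edgeR adjusted p = 1.19e-06) and 1.67 (SE 0.135, adjusted p = 0.00105), while by the rule it was also higher in Ajuba OE. The SYK line means were 37.1 RPM in shScrambled, its lowest line, and 77.5 and 122 RPM in shAjuba1 and shAjuba2. Both knockdown lines thus lay below Parental at 216 RPM and Control at 254 RPM. The shAjuba2 call of CACNA1E was lost in 3 of 10 alternatives. EPHB6, at -0.22 and 0.07, was called in neither, though 2 of 10 alternatives called it in shAjuba1.

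Control against Parental asked how the excised construct alone compared with unmodified cells. Of the 198 lower genes, 180 were below Parental in Control. Their median log2 fold change was -0.48, beside -0.05 for all genes. By edgeR 20 (10.1%) were called lower and 0 higher, where 0.442% of 13350 genes were called, 0.419% lower and 0.0225% higher. At an unadjusted p under 0.05, 122 were lower and 1 higher, a count for which no share over all genes was taken. DESeq2 called 66 lower and 0 higher, beside 2.41% of all genes called. SEMA3D (-4.61, SE 0.232, edgeR adjusted p = 0.00117), SEMA3C (-3.75, SE 0.235, adjusted p = 0.00201), PCDH19 (-3.95, SE 0.268, adjusted p = 0.00256) and GRIN2B (-1.70, SE 0.144, adjusted p = 0.0055) had the smallest adjusted p. Of the 31 higher genes tested, edgeR called DEFA5 and DKK4 lower and 0 higher. At an unadjusted p under 0.05, 5 were higher and 5 lower, again without a share over all genes. DESeq2 called 2 lower and 0 higher. The total of 22 was 3 without Control replicate 3, 8 without Control replicate 1, and 86 without Control replicate 2, which had the largest mitochondrial share of the line. It was 68 with DESeq2, 70 with edgeR on all 16 samples and 97 with every gene that had a count. Over all genes the share called was 0.112% without Control replicate 3, 0.255% without Control replicate 1 and 5.37% without Control replicate 2. It was 2.41% with DESeq2, 2.66% on all 16 samples and 7.94% with every gene that had a count. No count is given for fits without a Parental replicate, which leave a single sample in that line. The call was lost in 4 of 10 alternatives for DKK4 and in 3 of 10 for DEFA5 and GRIN2B.

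Some of the genes lay beside each other. Of the 230, 58 (25.2%) lay within 500 kb of another, in 23 stretches, of which 20 held a single direction. Of the 13126 genes that did not meet the rule, 9.20% lay as near to one of the 230. On chromosome 11 (74000277 to 74311640, GRCh38), UCP3, C2CD3, PPME1 and P4HA3 were the 4 genes at 1 RPM in the stretch, and all were lower, with log2 ratios of Ajuba OE to Control of -1.69, -1.10, -1.65 and -2.15. Beyond them UCP2 was at -0.82 and DNAJB13 at -1.15 on the left side, and PGM2L1 at -0.50 on the right, while PAAF1 and POLD3 were at 0.21 and -0.07. C2CD3 and PPME1 are read away from each other, and their promoter entries share 214 of 300 bases. The PPME1 entry (chr11:74171039-74171338, plus strand) is shown for that reason and holds none of the 4 motifs.
PPME1: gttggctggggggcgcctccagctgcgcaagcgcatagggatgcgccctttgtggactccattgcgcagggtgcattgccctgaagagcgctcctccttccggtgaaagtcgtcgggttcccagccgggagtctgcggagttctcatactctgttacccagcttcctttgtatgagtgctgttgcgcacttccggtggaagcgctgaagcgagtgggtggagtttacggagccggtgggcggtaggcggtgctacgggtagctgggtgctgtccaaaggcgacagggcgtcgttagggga

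On chromosome 12 (10158301 to 10223128), OLR1, TMEM52B and GABARAPL1 were lower at log2 ratios of -4.21, -4.56 and -1.67. Beside them CLEC2D was at -0.71 on the left side and KLRC2 at -0.31 on the right. Farther along on the right, MAGOHB, STYK1 and YBX3 were at 0.02, -0.15 and 0.21. On chromosome 6 (46687875 to 47042350), TDRD6, PLA2G7, ADGRF5 and ADGRF1 were lower by ratios from -1.49 to -4.20. On the left side SLC25A27 was at -0.51, CYP39A1 at -0.48 and RCAN2 at -1.53, and on the right TNFRSF21 at -0.08. On chromosome 7 (116287380 to 116561179), CAV2 and CAV1 at -1.66 and -3.22 lay between TES at -0.02 and MET at 0.70. Elsewhere on chromosome 7 (142760398 to 143362770), PRSS2, EPHB6 and TRPV6 were higher while CLCN1 and FAM131B were lower, with GSTK1, TMEM139 and CASP2 between -0.11 and 0.05. SYK and DIRAS2 were neighbours on chromosome 9 and both higher, at 1.58 and 1.47. The nearest other gene at 1 RPM was itself one of the 230 for 30 of the 198 lower and 7 of the 32 higher genes. For the other 168 lower genes it was below Control in 117, with a median log2 ratio of -0.14, and for the other 25 higher genes it was above Control in 20, with a median of 0.15. Of all genes that did not meet the rule, 7053 of 13126 were below Control, with a median of -0.02. Overlapping neighbours can share reads, and whether this touches the stretches was not tested.

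**Figure D4:**
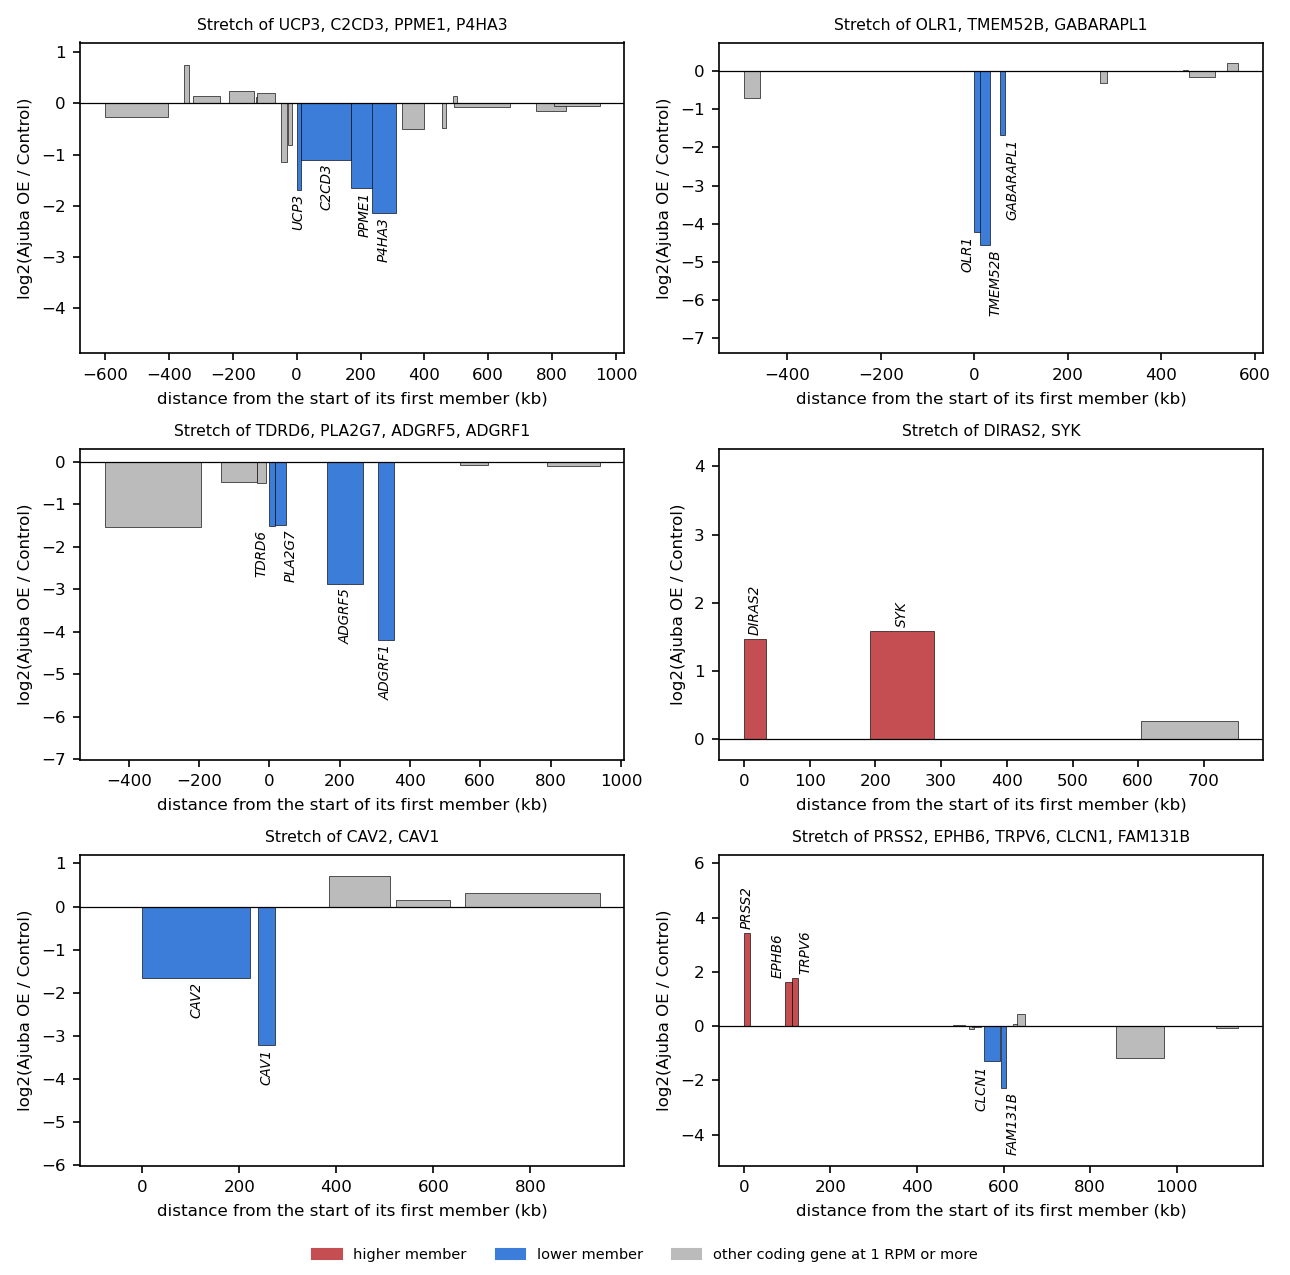
Maps of 6 stretches in which the genes lie beside each other: each bar is a coding gene at 1 RPM or more, placed by its distance in kb from the start of the leftmost such gene set apart, with height log2(Ajuba OE / Control) of line mean RPM. Blue bars (lower genes) and red bars (higher genes) stand side by side, and most grey bars of other genes are short, such as TNFRSF21 at -0.08 and TES at -0.02, with RCAN2 at -1.53 as the longest.

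Non-coding genes played no part in the rule and were tested in Ajuba OE against Control where they lay within 10 kb of one of the 230 genes. Of 44 tested, 23 (52.3%) were called by edgeR, all 23 lower and all near a lower gene, beside 2.99% of all 6462 non-coding genes tested, 2.14% called lower. Of those apart from the coding gene 8 of 11 were called, and of those overlapping it 15 of 33. None of the 44 was called higher in this fit or by DESeq2, and 1, CABP1-DT near the higher gene CABP1, was higher at an unadjusted p under 0.05. NGFR-AS1, near the higher gene NXPH3, went against its neighbour at -1.06 (SE 0.248, edgeR adjusted p = 0.0538) and was not called. DESeq2 called 1 of the 4 near a higher gene lower. CABP1-DT was called higher by edgeR on all 16 samples (1.14, SE 0.339, adjusted p = 0.0444) and with a replicate block (1.11, SE 0.300, adjusted p = 0.0196). Among those apart, SNHG18 (chromosome 5, 9546170 to 9550725), a snoRNA host gene beside SEMA5A, was at 0.301, 0.125 and 0.226 RPM in Ajuba OE and 1.98, 1.88 and 1.84 in Control, a log2 fold change of -3.01 (SE 0.275, edgeR adjusted p = 0.00109). CRIM1-DT, the divergent transcript of CRIM1 (chromosome 2, 36354744 to 36355471), gave -2.68 (SE 0.608, adjusted p = 0.0481 by edgeR), a call lost in 5 of 11 alternatives. Among those overlapping, NR2F1-AS1 gave -1.56 (SE 0.147, edgeR adjusted p = 0.00121) and EMX2OS -4.02 (SE 0.602, edgeR adjusted p = 0.00941). The strand setting of the counting is not given in the sources used here, so reads of an overlapping antisense gene and its partner cannot be told apart. Of the 8 called genes apart from their neighbour, 5 overlapped some other annotated gene, 3 of these on the other strand, and CRIM1-DT, LINC01750 and ENSG00000278905 overlapped none. The 23 called became 14 without Control replicate 3, Ajuba OE replicate 1 or Ajuba OE replicate 3, and 44 of 74 tested with edgeR on all 16 samples. The share over all non-coding genes was then 0.88%, 1.35%, 1.05% and 6.23%.

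**Figure D5:**
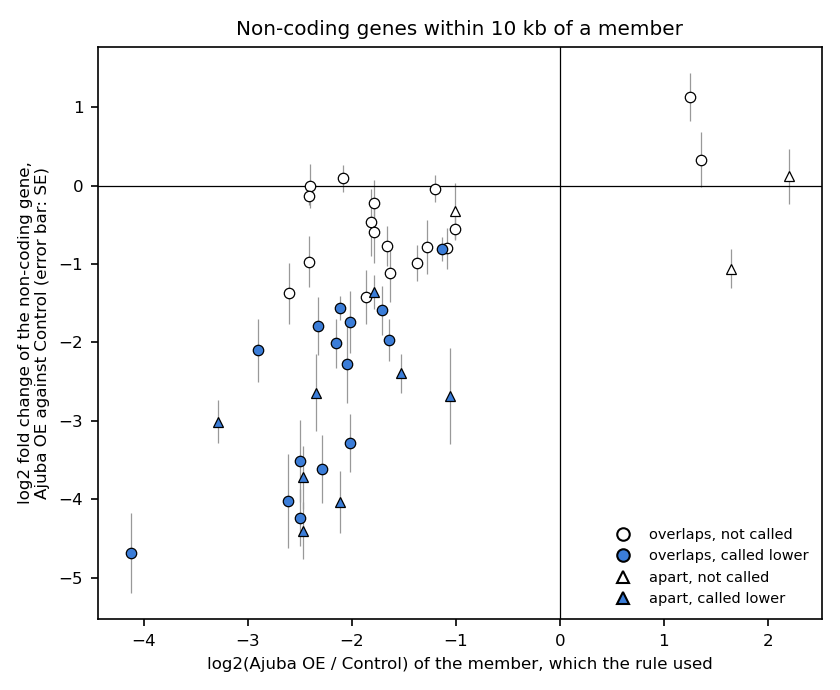
Log2 fold change of the 44 non-coding genes within 10 kb (vertical axis, edgeR, Ajuba OE against Control, error bar SE) against the log2 ratio of the coding gene beside them (horizontal axis), which the rule used. Circles overlap the coding gene and triangles lie apart, and filled symbols were called lower; all 23 filled symbols lie at the lower left, and the 4 points right of 0 are near higher genes.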

How the data were processed

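RNA from 16 SW480 samples of 6 lines was sequenced as stranded mRNA libraries in paired reads. Per the labels and the study's methods, the authors aligned the reads to hg38 (GRCh38) with HISAT2 and deposited counts of read pairs over exons per gene from featureCounts. Tool versions, the annotation release and the strand option are not given in the sources used here. Genes were matched by identifier to GENCODE v44, which held 56434 of the 66023 genes and 99.8% of counts. RPM was the count divided by the column total, times 1000000, and levels were ranked between genes per kb of exon. RPM was used as well for the rank of SYK and for the choice of named genes. 0 columns were left without a sample.

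Line means of RPM chose the 230 genes. The members, lists and roles were chosen with earlier results of these data known. Comparisons of other lines, and of non-coding genes within 10 kb, used edgeR 4.0.16 (R 4.3.3) on deposited counts: filterByExpr, TMM, quasi-likelihood test, 2 lines per fit, Benjamini-Hochberg adjustment over all genes. The test was checked on simulated data. DESeq2 1.42.0, RLE scaling, no filter, all 16 samples, a replicate block and leaving out each sample were alternatives. The comparison of shAjuba1 with shAjuba2 was added after seeing the data.

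Named genes were the 15 per direction with the largest ratio, the 5 per direction with the highest RPM, the 2 on each side of the limit per direction, the 4 with the smallest adjusted p per comparison, those called against the direction of Ajuba OE in both knockdown lines, those within 500 kb of another, those in a fixed list, and called non-coding neighbours. Genes named outside it (C2CD3's flanks, caveolar genes, GNG11 and others given for their role) were chosen after their values were seen. Intervals of RPM were not computed: the precision rests on 2 or 3 samples a line.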

Additional observations from a re-analysis of the deposited data

Results flagged for a closer look

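In 13 of the lower genes the knockdown lines went opposite ways against shScrambled, lower in shAjuba1 and higher in shAjuba2, and the difference was then tested directly as shAjuba1 against shAjuba2 with edgeR, a comparison added after seeing the data. All 13 differed, with log2 fold changes of -4.11 for KCNQ5, -3.96 for NRG1, -3.69 for F13A1, -3.64 for FRZB, -3.48 for ADGRF1, -2.98 for ADGRF5, -2.74 for GREM1, -2.36 for ZBED2, -2.22 for HSD17B2, -1.99 for CAVIN2, -1.76 for TRPS1, -1.71 for NAV3 and -0.80 for GDA. The largest adjusted p was 0.00175 (edgeR), for GDA, and the smallest 6.42e-07, for F13A1. The 13 were picked by opposite calls in the same samples, so a negative difference was set by the choice. The direct test gives its size and adds no separate support. ADGRF1 stood at 7.56, 9.49 and 7.87 RPM in shAjuba1 and at 83.3, 105 and 98.0 RPM in shAjuba2, with 17.5 and 17.2 RPM in shScrambled and 0.890, 0.667 and 1.01 RPM in Ajuba OE. NRG1 stood at 0.502, 0.631 and 0.331 RPM in shAjuba1 and at 8.11, 6.35 and 8.95 RPM in shAjuba2. The lines differ in shRNA and in culture, which cannot be told apart. Lines of 2 or 3 samples are too small for the check for a sample far from the others.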

How the results depend on the processing

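The higher genes numbered 32 as reported, 20 with 1 RPM added to each line mean and 21 where 5 RPM was asked of the highest line, and 30 to 35 with a sample left out. The lower genes numbered 198, 98 with 1 RPM added, and 195 to 222 with a sample left out, and TMM-scaled totals kept 177 of the 198. Members called in shAjuba1 against shScrambled (144) ranged from 106 to 168 with a sample left out, those in shAjuba2 (98) from 25 to 157, those in Control against Parental (22) from 3 to 86, and non-coding neighbours (23) from 14 to 22. Control against Parental gave 97 without a filter, 68 with DESeq2 and 70 on all 16 samples, and non-coding neighbours gave 44 on all 16 samples. The shares over all genes were then 7.94%, 2.41% and 2.66%, and over all non-coding genes 6.23%. Why these counts move was not tested.

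With the replicate number as a block, shAjuba1 gave 158 members called, shAjuba2 142, Control against Parental 34 and non-coding neighbours 29. In the same block fits, calls over all coding genes at 1 RPM or more were 50.4%, 30.1% and 1.12%, and over all non-coding genes 11.4%. The numbers are not known to pair samples: deviations of same-numbered samples from their line means correlated at -0.169 to 0.616. Of the 6 samples of Ajuba OE and Control, 2 correlated best with their own number. So did 3 of 5 in shAjuba2 against shScrambled, 1 of 5 in shAjuba1 against shScrambled and 0 of 5 in Control against Parental.

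Values that changed sign were all of uncalled genes. ANXA1 in shAjuba1 (-0.07) was 0.06 with the block and -0.20 to 0.07 with a sample left out. EPHB6 in shAjuba2 (0.07) ran from -0.01 to 0.16, CCN1 in shAjuba1 (-0.02) from -0.06 to 0.04 and GABARAPL1 in shAjuba2 (0.07) from -0.01 to 0.21 with a sample left out. CCN1 was 0.00 on all 16 samples and GABARAPL1 -0.00 with the block. Members expressed near 1 RPM rest on few counts, and the 5 genes with at most 3 counts in Ajuba OE allow no fold.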
